A study of Mus musculus with 4 samples.

Results

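The deposited list of open chromatin of mouse salivary gland organoids (mSGOs) was read for 10 genes that mark the saliva-secreting acinar cell or encode what it secretes. They were taken by name from a gene table of GRCm38.p6 and comprised Bhlha15 and Aqp5, an acinar transcription factor and a water channel, and 8 names of secreted products, Muc19, Smgc, Lpo, Bpifa2, Pip, Dcpp1, Amy1 and Car6. The table holds Muc19 only as a synonym of Smgc, so the 10 names gave 9 genes, out of 21440 protein-coding genes with a known strand. ATAC-seq marks stretches of DNA that the Tn5 transposase can enter, and the list held 32011 distinct regions. It came with 4 samples of non-irradiated organoids grown from the submandibular glands of C57BL/6 mice, 2 of passage 1 and 2 of passage 2. In each passage, the labels give 1 mouse of 12 weeks and 1 of 3 months, and no genetic change, while the study's methods give female mice and organoids from 4 animals. All were grown in Matrigel with EGF, FGF, insulin, dexamethasone, a ROCK inhibitor and media conditioned with Wnt and R-spondin. The study describes its ATAC-seq as made from the younger of its 2 organoid ages, which it calls more premature. The list pools the samples, so how far they differ and how deeply each was sequenced are unknown, and every value below describes the 1 shared list without a test. A region that is not listed was not detected at that unknown depth, and it need not be closed. In bulk material, a few cells with open chromatin and weak opening in many cells cannot be told apart.

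Acinar cells make the proteins and the primary fluid of saliva, and duct cells then change its salts. Bhlha15, also called Mist1, is a basic helix-loop-helix factor of secretory cells that helps to build their granules and rough endoplasmic reticulum, and Aqp5 lets water cross the apical membrane of the acinar cell. Product genes of this kind are read at very high rates in the mature gland, and many of them sit in clusters of related genes. Organoids of this kind are used as a model of the stem/progenitor cells of the gland, and the comparison asks how far the chromatin of such cultures is open at genes of the mature secretory cell.

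None of the 9 genes had an open region at its 5′ end, and none had one within the gene. A region was counted at the 5′ end when its midpoint lay within 1 kb of the outermost 5′ end of the gene, and such a gene is called open at its start. Such a region was present for 38.3% of all 21440 protein-coding genes, and 25.6% had a region elsewhere in the gene. Both kinds were missing for 47.6% of all genes. The 9 genes were 2.2 to 23.1 kb long, and the shares over all genes were not matched for length. Bhlha15 and Aqp5 did not stand apart from the product genes at the start of the gene, with 0 of 2 against 0 of 7. The count stayed at 0 with every RefSeq start of a gene counted. A distance of 500 bp or 2 kb could not change it, since the nearest region to any of the 9 outermost 5′ ends lay 5.23 kb away.

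The DNA before the start site differed between the factor and channel genes and the product genes. The 250 bases before the start are shown for Bhlha15 and Aqp5, which had higher CpG ratios than the 7 product genes. They are also shown for Smgc and Pip, the product genes with an exact match to TATAAA, the core of the TATA box. Sequences are those of RefSeq on GRCm38.p6, 5′ to 3′ on the strand of the gene. All 9 genes matched the promoter table by identifier. In the first pair, capitals mark CpG. In Smgc they mark a match to CCAAT on the other strand and a TATA box. In Pip they mark a match to TATAAA on each strand and, between them, TGATTCA, a match to the searched pattern TGANTCA.
Bhlha15 (chr5:144190036-144190285, plus strand, with 13 CpG): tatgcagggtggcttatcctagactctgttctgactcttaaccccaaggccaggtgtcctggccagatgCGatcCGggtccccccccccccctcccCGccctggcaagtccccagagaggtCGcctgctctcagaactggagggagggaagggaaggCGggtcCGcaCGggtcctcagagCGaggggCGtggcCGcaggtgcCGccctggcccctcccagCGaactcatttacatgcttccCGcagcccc
Aqp5 (chr15:99590778-99591027, plus strand, with 38 CpG): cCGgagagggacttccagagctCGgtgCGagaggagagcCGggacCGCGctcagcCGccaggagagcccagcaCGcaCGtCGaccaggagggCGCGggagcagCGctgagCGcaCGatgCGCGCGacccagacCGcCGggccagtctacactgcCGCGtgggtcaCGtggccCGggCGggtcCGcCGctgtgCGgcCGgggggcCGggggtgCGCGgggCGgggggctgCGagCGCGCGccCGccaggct
Smgc (chr15:91838078-91838327, plus strand): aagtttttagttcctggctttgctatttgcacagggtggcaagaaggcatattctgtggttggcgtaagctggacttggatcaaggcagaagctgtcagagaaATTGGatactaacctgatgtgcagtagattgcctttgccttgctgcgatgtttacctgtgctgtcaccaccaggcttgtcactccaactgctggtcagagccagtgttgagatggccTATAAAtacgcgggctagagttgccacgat
Pip (chr6:41847299-41847548, plus strand): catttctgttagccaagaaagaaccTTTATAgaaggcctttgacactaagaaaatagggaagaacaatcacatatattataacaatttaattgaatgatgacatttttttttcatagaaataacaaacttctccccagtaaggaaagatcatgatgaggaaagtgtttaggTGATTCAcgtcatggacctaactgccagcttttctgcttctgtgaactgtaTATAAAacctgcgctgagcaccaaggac

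CpG content was given as the number of CpG observed over that expected from the C and G of a 300-base window, from 250 bases before the start to 50 after it. Aqp5 had a ratio of 0.97, higher than in 89.7% of 15752 promoters of protein-coding genes. For Bhlha15 the ratio was 0.51, below the median of 0.59 over all promoters. The 7 product genes were lower still, from 0.13 at Bpifa2 to 0.33 at Smgc. Across all promoters, 41.3% had a region within 1 kb of the start, and this share followed the CpG ratio. In 10 bins of equal size, it was 2.47% in the lowest bin and 73.5% in the highest. Genes in the bin of Aqp5 had a region in 72.3% of 1575 cases, and those in the bin of Bhlha15 in 39.8%. For the bins of the product genes, the share was 4.76% for Bpifa2, Lpo and Dcpp1, 8.13% for Pip, Car6 and Amy1, and 17.3% for Smgc. At the CpG ratio of each product gene, most genes had no region, whereas at that of Aqp5 most had one. The Aqp5 window was also very rich in G and C, at 79.7%. Of 734 promoters with at least 75% G and C, 50.7% had a region at the start. In 10 bins of G and C content, the share was 65.2% for Bhlha15, 55.4% for Aqp5, 53.7% for Dcpp1 and 42.6% for Car6. It ran from 2.86% for Pip to 18.7% for Smgc over the other product genes. By this measure, Dcpp1 too lay in a bin where most genes had a region, so the contrast depended on the measure used. The part of base composition in these counts was not tested.

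**Figure D1:**
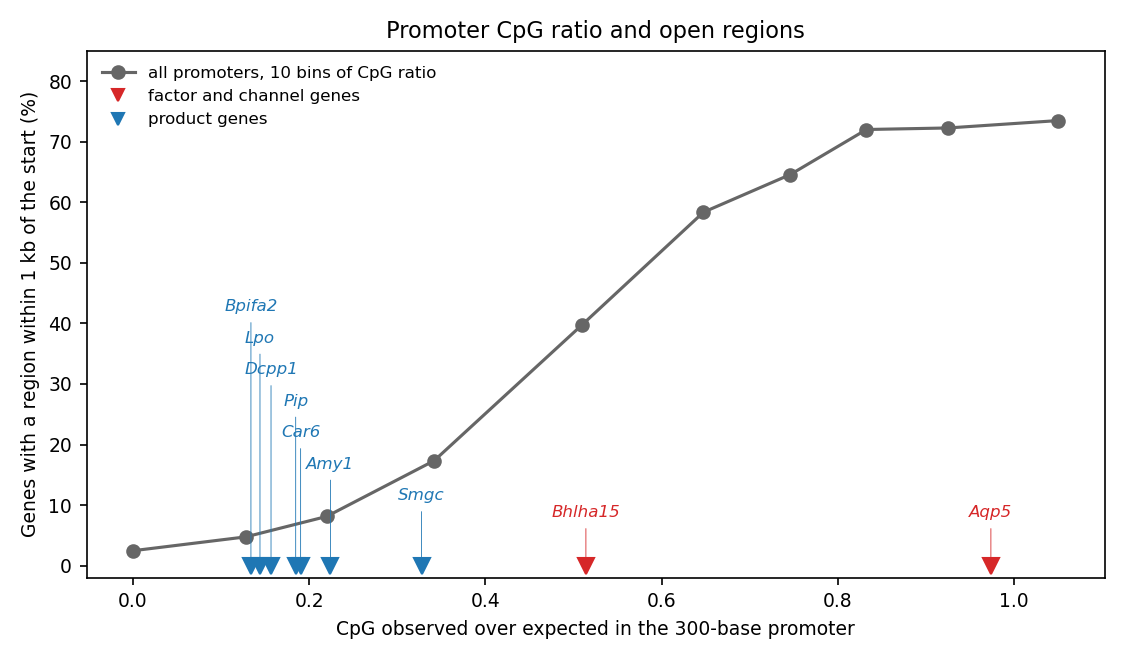
Share of protein-coding genes with a region within 1 kb of the start (%, y axis) against the CpG observed over expected ratio of the 300-base promoter (x axis). Grey points are 10 bins of 15752 promoters at their median ratio, rising from 2.47% to 73.5%, and triangles on the zero line mark the ratio of each of the 9 genes, red for Bhlha15 and Aqp5 and blue for product genes, all of which lack a region.

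Short motifs were searched on both strands of the same 300-base windows. TATAAA, the core of the TATA box, was found in Smgc and Pip and in 13.7% of all promoters. In Smgc its first base lay at -30 and in Pip at -28, counted from the start base as 0, with a further match in Pip at -225 on the other strand. Only the exact string was searched, so variants such as TATAAG, present before the starts of Bpifa2 and Dcpp1, were not counted. CATATG, an E-box that Bhlha15 is known to bind, was in 0 of the 9 promoters and in 3.34% of all, and CAGCTG, another E-box, was in Car6 and in 14.9% of all. GGGCGG, a GC box, was in Bhlha15, Aqp5 and Car6 and in 46.7% of all promoters. CCAAT was in Smgc and Car6 (39.4% of all). TGANTCA, an AP-1 type pattern in which N is any base, was in Pip as TGATTCA (6.996% of all). It overlaps no other searched motif there. ACAAAG and GGAATG, core letters of SOX and TEAD sites, were in none of the 9 and in 16.6% and 13.3% of all promoters. These matches describe letters and do not show binding.

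Around the genes, 13 regions lay within 50 kb of either end of 6 of the 9 genes. Among all protein-coding genes, 78.5% had a region in the gene or within 50 kb, and the median gene had 3 (quartiles 1 and 5). Bhlha15, Aqp5, Lpo, Pip and Dcpp1 each had 2 regions, Car6 had 3, and Smgc, Bpifa2 and Amy1 had 0. A gene with no region this close is found in 21.5% of all cases. Bhlha15 and Aqp5 had a mean of 2.00 regions per gene, and the product genes 1.29, with 4 of 7 product genes having any. Both groups had a median of 2. With 2 and 7 genes and no samples to compare over, this difference has no test. Among the 16006 regions with the lowest q-values, it turned round, with means of 0.50 and 0.57.

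Most of these 13 regions had low folds and lay nearer to the 5′ ends of other genes. Of the 13, 2 marked the start of another coding gene, less than 1 kb away, and 11 lay elsewhere. Over the whole list, 74.5% of regions lay over 1 kb from any coding 5′ end. Only 2 of the 13 had a 5′ end of one of the 9 genes as the nearest coding 5′ end, 1 at Bhlha15 and 1 at Pip. How often this is so for regions around other genes was not counted. The 11 regions elsewhere had folds from 4.41 to 9.98, with a median of 5.72, where fold is the signal at the summit relative to its local background in the authors' peak calling. Over the 23833 regions of the list that lay over 1 kb from any coding 5′ end, the median fold was 6.87, and 8 of the 11 were below it. The IDR score (irreproducible discovery rate) rates how well a region recurs between the replicates compared, and the study's methods do not say which those were. Its top value of 1000 was given to 3 of the 11 and to 40.9% of all regions over 1 kb from any coding 5′ end.

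**Figure D2:**
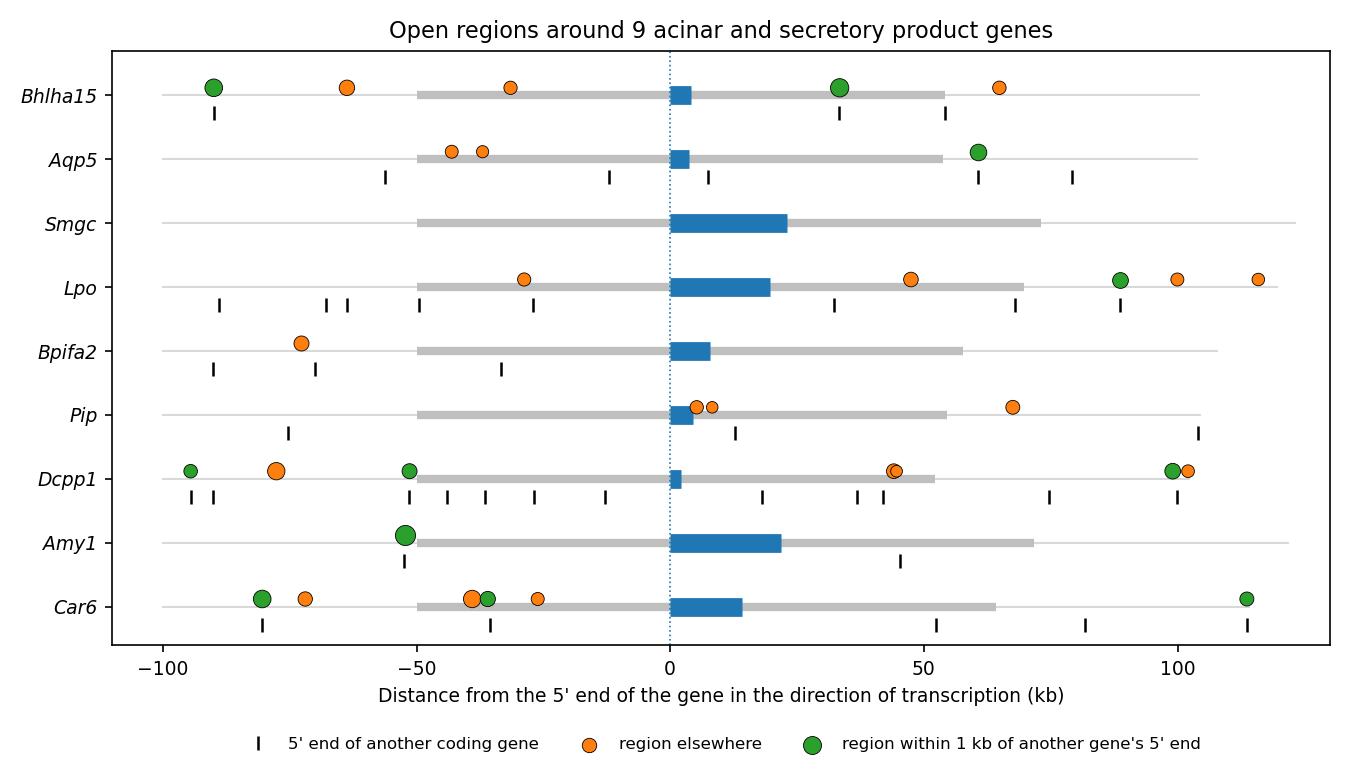
Open regions around each of the 9 genes, by distance of the region midpoint from the 5′ end of the gene in the direction of transcription (kb). Blue bars are the genes, thick grey lines reach 50 kb and thin ones 100 kb beyond them, ticks are 5′ ends of other coding genes, and dot area grows with fold, orange for regions elsewhere and green for those within 1 kb of another gene's 5′ end. No dot lies at the 5′ end of a gene or in a gene, and Smgc has none at all in view.

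At Bhlha15, the nearest region lay 31.5 kb upstream, on chromosome 5 from 144158671 to 144158969. It sat inside the neighbouring kinase gene Lmtk2, yet the 5′ end of Bhlha15 was the nearest to it. Its fold was 5.80, above 27.2% of all regions, with an IDR score of 917. The second region, from 144223452 to 144223936, had a fold of 11.03 and an IDR score of 1000, and it lay 79 bp from the 5′ end of Tecpr1, a gene of autophagy. Lmtk2 itself had a region 33.5 bp from its 5′ end, with a fold of 10.3. So the genes on either side were open at their starts, and Bhlha15 between them had no region.

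Aqp5 lies between Aqp2 and Aqp6, which encode further water channels, and none of these 3 was open at the start. The closest region to Aqp5 lay 37.0 kb upstream, from 99553826 to 99554283 of chromosome 15, and had a fold of 4.91 and an IDR score of 714. A second one 43.1 kb upstream, from 99547830 to 99548111, had a fold of 5.53 and the lower score of 568. Both were nearer to the 5′ end of Faim2 than to that of Aqp5. Downstream, the start of Racgap1, a gene of cell division, had a region 18.5 bp away with a fold of 9.11. Across 11 aquaporin genes, 0 had an open start, and 2 held a region within the gene, among them Aqp3, a channel of basal epithelial membranes. The aquaporin family was looked at after the values of Aqp5 were seen.

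Pip, which encodes the small secreted prolactin-induced protein, had the closest region of the 9 genes. It lay just past the 3′ end, on chromosome 6 from 41852618 to 41852943, with its midpoint 0.716 kb beyond the gene and 5.23 kb from the 5′ end. The fold was 5.89 and the IDR score 656. Another region followed from 41855621 to 41856043, with a fold of 4.41, above only 4.54% of all regions, and a score of 542, close to the lowest score of 540. That one was nearest to Sval2, a neighbouring gene. Neither region was among the 16006 with the lowest q-values, nor were the 2 regions at Aqp5. With regions at either end of a gene counted, Pip was the 1 gene of the 9 that had one.

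Car6, which encodes the carbonic anhydrase secreted into saliva, had 3 regions, all upstream on chromosome 4. They lay 26.1, 35.95 and 39.03 kb from its 5′ end, with folds of 5.61, 7.66 and 9.98. The nearest coding 5′ end was in each case that of Eno1, a glycolytic enzyme gene, and the region from 150236882 to 150237291 lay 378.5 bp from it. Among 16 carbonic anhydrase genes, 3 were open at the start, namely Car13 with a fold of 15.1, Car5b with 8.98 and Car7 with 7.07, and 8 held one within the gene. Car6 was in neither count.

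Lpo encodes lactoperoxidase, an antimicrobial enzyme of saliva and milk, and stands beside its relatives Mpo and Epx of white blood cells. Its 2 regions lay on chromosome 11, the nearer one 28.8 kb upstream from 87854531 to 87855245 with a fold of 5.72. That region sat inside Mks1, a gene of the primary cilium, 1.71 kb from its 5′ end. The farther one, from 87778447 to 87778872 inside Tspoap1, had a fold of 7.04 and an IDR score of 1000. None of the 4 heme peroxidase genes had a region at either place, 5′ end or gene body, a family chosen after values were seen.

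Dcpp1, a demilune cell and parotid protein gene, is the first of 3 near copies in a row. None of Dcpp1, Dcpp2 and Dcpp3 had a region at the 5′ end or in the gene. The 2 regions within 50 kb of Dcpp1 lay 44.1 and 44.6 kb downstream, both inside Sbp on chromosome 17. The nearer one, from 23924524 to 23924980, had a fold of 7.12, and the other, from 23925059 to 23925519, one of 4.53. The 300-base promoter of Dcpp1 was 93.8% identical to that of Dcpp2 and 95.1% to that of Dcpp3, with at most 66 identical bases in a row. How reads that fit several copies were treated is not given in the sources used here, so a missing region at these genes is uncertain on that account too. No 75-base window of the Dcpp1 promoter, the length of 1 read, occurred exactly in another RefSeq promoter. The RefSeq start of Dcpp1 used for the promoter lay 207 bp from the outermost 5′ end of the gene.

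Amy1 encodes the salivary and liver amylase and precedes a row of pancreatic amylase genes. For 7 amylase genes, the list held 0 regions, whether at the start, in the gene or within 50 kb. The promoters of Amy2a2, Amy2a3 and Amy2a4 were 100% identical. That of Amy2a1 was 96.4% identical to each of them, with 228 identical bases in a row. The promoter of Amy1 was at most 49.7% identical to the others, so copies limit the reading of Amy2a1 to Amy2a4 more than that of Amy1. The nearest region to Amy1 lay 52.2 kb upstream at the start of Rnpc3, between 113629563 and 113630316 of chromosome 3, at a fold of 13.3, above 94.0% of all regions. In the other direction, no region was met for so long that the stretch without a region around the start of Amy1 was 3326.5 kb, longer than for 96.0% of protein-coding genes by midranks.

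Bpifa2, the parotid secretory protein gene, stands in a cluster of BPI fold genes. None of 13 genes of this family, taken up after values were seen, was open at the start or within the gene, and 5 had one within 50 kb. The nearest region to Bpifa2 lay 72.7 kb upstream, from 153935448 to 153935737 on chromosome 2, with a fold of 7.43 and an IDR score of 798. It was 2.62 kb from the 5′ end of Bpifb4.

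Smgc, the submandibular gland protein C of neonatal and female glands, and the gel-forming mucin gene Muc19 had the most distant nearest region of the 9 genes. It lay 455.7 kb from the shared start, farther than for 93.9% of protein-coding genes. The stretch without a region around it was 1038 kb long, shorter than that at Amy1. In GENCODE release M39, on GRCm39, Muc19 has the same start as Smgc, is 110.0 kb long against 23.2 kb, and ends before Cntn1. Between the 3′ end of Smgc and Cntn1, 189.7 kb in the GRCm38.p6 table, 0 regions were listed. Muc19 thus had no region either, as far as the gene order carries over, and Lrrk2, upstream of Smgc, was the next coding gene on the other side with 0 regions between them.

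The distance from the 5′ end to the nearest region can be compared over all 9 genes. The median was 37.0 kb over the 9 genes and 7.62 kb over all protein-coding genes, and 8 of the 9 were farther than that, Pip being the exception. Bhlha15 and Aqp5 lay at 31.5 and 37.0 kb, inside the range of the product genes, from 5.23 to 455.7 kb. At these loci, 11 of 41 coding genes with a 5′ end within 100 kb of the 9 genes (26.8%) had a region at that end, beside 38.3% of all coding genes. They were Tecpr1, Lmtk2, Racgap1, Eno1, Rere, Gpr157, Rnpc3, Elob, Flywch2, Prss30 and Supt4a, named after their values were seen. Regions fell from 18.5 to 854 bp from those 11 starts, as the plot of regions by distance shows for each locus.

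Genes on which acinar cells rely, but which other cells use as well, were set beside them. Of 14 factors of secretory differentiation, 6 were open at the 5′ end (against 38.3% of all coding genes). Xbp1, a driver of the unfolded protein response and of secretory capacity, had one with a fold of 6.76, and Creb3l2, a factor of the secretory pathway, one with a fold of 18.1. Etv1, Etv5, Ehf and Atf6 had one too. Spdef, Elf5, Sox10, Ascl3, Rbpjl, Ptf1a and Nr5a2 had none at the 5′ end or in the gene, like Bhlha15, while Creb3l1 held 2 within the gene.

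Of 12 genes of granules and membrane traffic, 8 were open at the 5′ end. These included Rab3d, a small GTPase of secretory granules, with a fold of 5.21, Vamp8, a protein of granule fusion, with 8.37, and Derl3, of the endoplasmic reticulum, with 12.4. Rab3d and Rab26 are both known targets of Bhlha15, and Rab26 had no region at the 5′ end or in the gene. Of 14 genes of fluid secretion, 4 were open at the start and 9 held a region within the gene, so that 3 had neither. Over all coding genes, 38.3% were open at the start, 25.6% held a region within the gene and 47.6% had neither. The calcium channel gene Itpr2 had 12 within the gene besides 1 at its 5′ end, Chrm3, the muscarinic receptor that drives secretion, had 6 within the gene, and Ano1, the apical chloride channel, had 2. Gene length was not taken into account in these counts. The study's pro-acinar markers Chrm3, Alcam and Clcn3 each had a region at the 5′ end or in the gene, Chrm3 only in the gene. The study names them for pro-acinar cells of its older organoids, whereas its ATAC-seq was made from the younger ones.

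A longer list of salivary product genes was read in the same way. Of 26 in the table, 1 was open at the start, Wfdc18, with a fold of 5.56, and Egf held 1 within the gene. At Prol1, Mucl2, Smr2, Smr3a, Bpifa1, Bpifb1, Cst10, Prh1, Prb1 and Amy2a5, no region lay within 50 kb. Product genes of pancreas, liver, mammary gland and stomach were set beside them, and 1 of 16 was open at the start, Apoa2. The median number of regions within 50 kb was 1 in both of these lists, against 2 over the 7 salivary product genes and 3 over all protein-coding genes. No test was made of these lists.

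**Figure D3:**
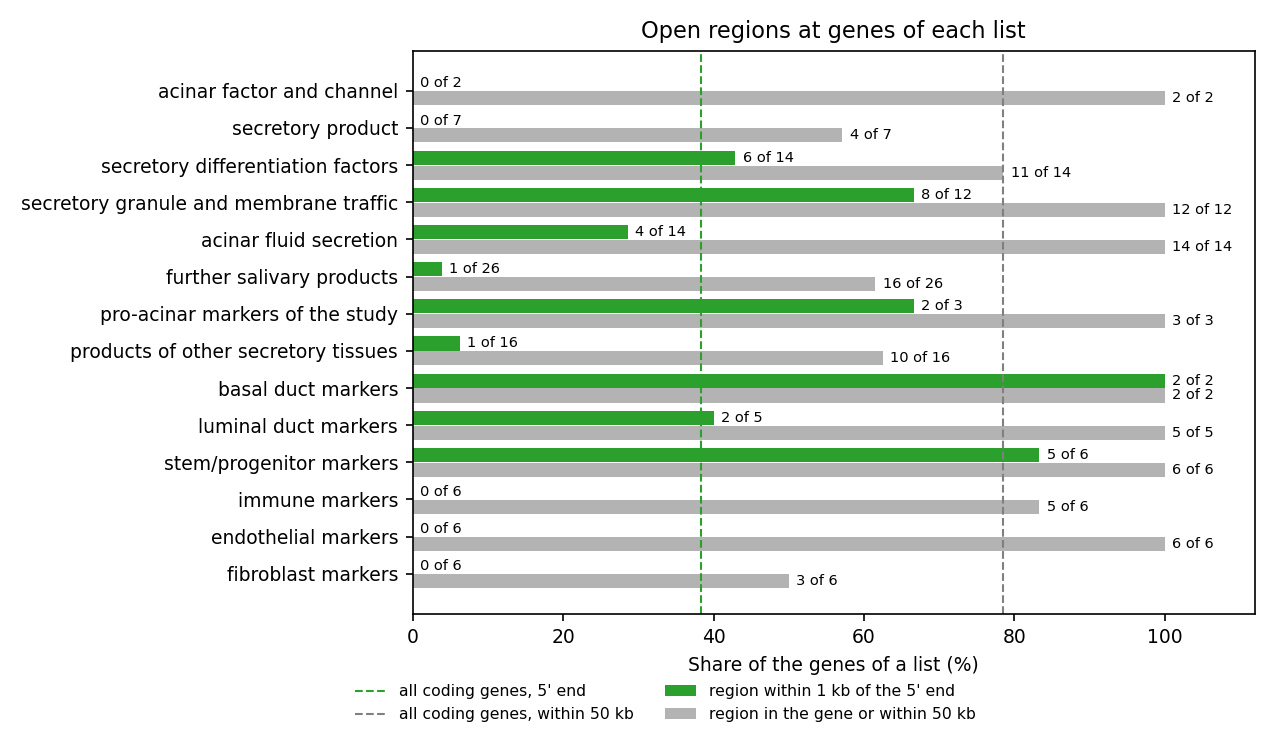
Share of the genes of each list (%, x axis) with a region within 1 kb of the 5′ end (green) and with a region in the gene or within 50 kb (grey), with the counts beside the bars. Dashed lines give the shares over 21440 protein-coding genes, 38.3% and 78.5%. The factor and channel list and the product list have no green bar, whereas 8 of 12 traffic genes and 5 of 6 stem/progenitor markers have a region at the 5′ end.

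Markers of other cells that the cultures could hold were read as a check of the labelled tissue. Both basal duct keratin genes, Krt14 and Krt5, were open at the 5′ end, with folds of 5.43 and 2.95. Among stem/progenitor markers, 5 of 6 were open there, among them Sox9 with a fold of 7.82, Cd44 with 7.18 and Itgb1 with 10.7, and Trp63 held 7 within the gene. For luminal duct markers the count was 2 of 5, at Krt8 and Cldn4. Immune, endothelial and fibroblast markers had 0 of 6 each at the 5′ end, and 0, 2 and 1 of them held a region within the gene. Over all coding genes, 38.3% were open at the 5′ end and 25.6% held a region within the gene. The luminal count at the 5′ end and the endothelial count within the gene were not below these shares. The fold at Krt5 was above only 0.56% of all regions. The list measures open chromatin and not expression, and it gives no share of cells.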

How the data were processed

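Bulk ATAC-seq libraries of the 4 samples were sequenced as 75 bp paired-end reads. Alignment and peak calling by the authors used ENCODE's ATAC-seq workflow, with 1 consensus list over all organoid samples, and the deposited list is here assumed to be that one, although neither its lines nor its distinct regions number the same as the consensus peaks that the study describes. Filters and pipeline version are not given in the sources used here. For each summit, the deposited list gives an IDR score, a fold (ratio) over local background and a −log10 q-value, all used here, and a −log10 p-value, which was not. Its 69545 lines were joined into 32011 distinct regions, each with the values of its summit of lowest q-value. It has no read counts.

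The submitters' processing notes name GRCm39 and HOMER. The list was read as GRCm38, because 8 of 21 chromosomes had regions past their GRCm39 end. A region lay within 1 kb of 38.3% of GRCm38.p6 RefSeq 5′ ends, of 3.66% to 4.65% of the same ends shifted by 2 to 100 kb, and of 5.30% of GRCm39 ends. Gene ends came from the RefSeq table of GRCm38.p6. Strand came from the RefSeq promoter table for 17492 of 21887 protein-coding genes and by name from GENCODE M39 for 3948. The others were left out.

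A region was placed by its midpoint. Distances, counts and percentiles by midranks are descriptions, with no test. Genes, lists and motifs were chosen with earlier results of these data known. All 10 genes are named, with their regions at the 5′ end, in the gene or nearest by, and genes of other lists that have a region at the 5′ end or in the gene or are among the first 4 of their list. Other genes were named after their values were seen. Promoter identity came from global alignment in Biopython 1.88. Counting was tested on simulated data with regions planted at known places. The work was done in Python 3.11.15 with pandas 2.3.3, numpy 2.4.6, matplotlib 3.10.9 and scipy 1.17.1.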

Additional observations from a re-analysis of the deposited data

How the results depend on the processing

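No paired analysis was possible because the list pools all samples, and for the same reason none could be left out. Genes open at the 5′ end numbered 0 of 9 under 7 of the 8 alternatives. Every RefSeq start and strand from the promoter table alone were added after the data were seen. Most of the 7 could not have changed a count of 0. Stricter sets and 500 bp can only lower it, and all 9 strands already came from the promoter table. The nearest region to any of the 9 outermost 5′ ends lay 5.23 kb away, beyond the 2 kb setting. The count became 1, at Pip, with either end of a gene counted, which turned factor and channel minus product genes at the 5′ end from 0 to -1. The count of genes with a region in the gene was 0 under all 3 alternatives, of which the stricter sets could only have lowered it. Genes with a region within 50 kb numbered 6, and 1 within 20 kb (Pip); the other 5 alternatives gave 4 to 8. The 13 regions within 50 kb became 5 among the 16006 regions with the lowest q-values and at an IDR score of 1000, 2 within 20 kb, 31 within 100 kb and 30 by lines; smaller and larger sets change these counts by construction. The mean number of regions per gene, factor and channel minus product genes, moved from 0.71 to -0.0714 in both stricter sets. The unknown depth limits every statement that a region is missing.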
